A study of Mus musculus with 8 samples.

Results

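The families described here are the endogenous retroviruses of the mouse and its relatives: IAP, RLTR, ETn, MMETn, MMERVK, MYSERV, BGLII, MuRRS, MMERGLN, MMTV and MuLV. They were picked by the start of their name in the deposited table of repeat counts, which gave 136 of 1208 repeat families, and no measured value entered the choice. Of these, 107 are long terminal repeat (LTR) families and 29 are internal families, the latter named -int or _I. The RNA came from meiotic and post-meiotic germ cells of C57BL/6 male mice of 3 to 6 months. Wild-type mice are labelled H3.3BWT/WT and knockout mice, which lack H3f3b, H3.3BKO/KO, and the labels add Actin Cre WT to both genotypes. In all 4 groups the cells were sorted by settling in albumin, in a medium that held sodium butyrate, an inhibitor of histone deacetylases. Each group has 2 libraries of total RNA, and the labels say that RNA was taken from the tubules of a single mouse. They do not say which libraries share a mouse. The p-values thus rest on the spread between these libraries, shared between families and groups, and not on a known spread between mice.

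An endogenous retrovirus is a viral genome inherited in the germ line. A complete copy has an internal part, which codes for the gag and pol proteins, between 2 LTRs that hold the promoter and the end of the transcript, and many copies have been reduced to a solitary LTR. Copies are silenced by DNA methylation and by H3K9 methylation, which SETDB1 sets where KRAB zinc finger proteins bring TRIM28. In embryonic stem cells the histone variant H3.3, placed by ATRX and DAXX, is part of this silencing, and in male germ cells the piRNA pathway adds to it. H3f3b is 1 of the 2 mouse genes that encode H3.3, and H3f3a is the other. The consensus sequences of the families were not used here, so that levels are not per length and are compared between groups and not between families.

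Reads on H3f3b were 12130 to 36885 in the 4 WT libraries and 407 to 1107 in the 4 KO libraries. Each library holds between 8995050 and 18865521 reads on repeats, and the retroviral families took 4.41 to 5.39% of them, or 421374 to 917883 reads. A level is given in RPM, the reads on a family after the repeat reads of each library are scaled to 1000000, in replicate 1 and replicate 2 of a group (n = 2). The small RNAs 7SLRNA and 7SK took 21.2 to 26.4% of the repeat reads in the WT libraries, 27.7 to 30.4% in the KO meiotic libraries and 23.2 to 24.8% in the KO post-meiotic libraries, which lowers the RPM of other families where that share is high. The 10 spermatid markers summed to 9909 and 11035 CPM (the same scale over gene reads) in the WT meiotic libraries against 30937 and 31321 in the WT post-meiotic libraries, so spermatid transcripts are present in both fractions. In bulk samples, fewer cells of a type and less RNA per cell cannot be told apart.

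A family was tested where the mean of at least 1 compared group reached 5 RPM. This kept 134 of the 136 families, 105 LTR and 29 internal. RLTR44D, the lowest family kept, ranged from 9.44 to 13.5 RPM. RLTR3_Mm (0.954 to 3.78 RPM) and RLTR43B (0.265 to 1.15 RPM) fell under the limit and are not counted below. A call needs an adjusted p below 0.01 in edgeR's quasi-likelihood test over all repeat families, together with a log2 change beyond 0.5 in either direction (the fold limit), and each log2 change is printed ± its standard error. With 2 libraries against 2 an exact permutation test of a single family cannot go below p = 0.333. The edgeR p-values and the standard errors thus rest on the spread shared between families and groups. A standard error is therefore not the spread of a family's own replicates.

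RLTR10B and RLTR10B2, LTRs of class II retroviruses, were higher in KO than in WT cells of both fractions, by 1.42-fold to 1.81-fold, and few other retroviral families passed the same limits. In meiotic cells 2 of 134 families were called higher in KO and 5 lower, where 0.42% and 1.36% of all 953 tested repeat families were called higher and lower. In post-meiotic cells 2 were called higher and 0 lower, against 0.208% and 0.52% of 962. RLTR10B and RLTR10B2 are the 2 called higher in each fraction. The study had picked these families out on the same libraries, so their direction here is not independent evidence.

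RLTR10B stood at 109 and 104 RPM in WT and at 193 and 193 RPM in KO meiotic cells. In the post-meiotic fraction it stood at 105 and 108 RPM in WT and at 156 and 146 RPM in KO. All 4 KO libraries lie above all 4 WT libraries. The log2 change was 0.86 ± 0.07 in meiotic cells (1.81-fold, adjusted p = 1.23e-32) and 0.51 ± 0.07 in post-meiotic cells (1.42-fold, adjusted p = 1.75e-10). The second value lies just past the limit of 0.5, and it was 0.49 without WT post-meiotic replicate 1 and 0.46 without KO post-meiotic replicate 1, which ends the call. Within WT the 2 fractions overlap for RLTR10B, while within KO it fell by 0.36 ± 0.07 on the log2 scale from meiotic to post-meiotic cells (adjusted p = 3.77e-07).

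RLTR10B2 was measured at 109.7 and 105 RPM in WT meiotic cells and at 159 and 163 RPM in KO meiotic cells. The post-meiotic values were 116 and 121 RPM in WT and 182 and 172 RPM in KO. Again no KO library overlaps a WT library. The log2 change was 0.59 ± 0.07 in meiotic cells (adjusted p = 1.96e-15) and 0.58 ± 0.07 in post-meiotic cells (1.49-fold, adjusted p = 6.15e-14). The difference between the 2 KO effects was −0.01 ± 0.10 for RLTR10B2 (adjusted p = 0.961) and −0.35 ± 0.10 for RLTR10B (adjusted p = 0.00953), the latter under the fold limit. The median of all 953 repeat families tested in meiotic cells was −0.10, and relative to it RLTR10B and RLTR10B2 were higher by 0.96 and 0.69 on the log2 scale.

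**Figure D1:**
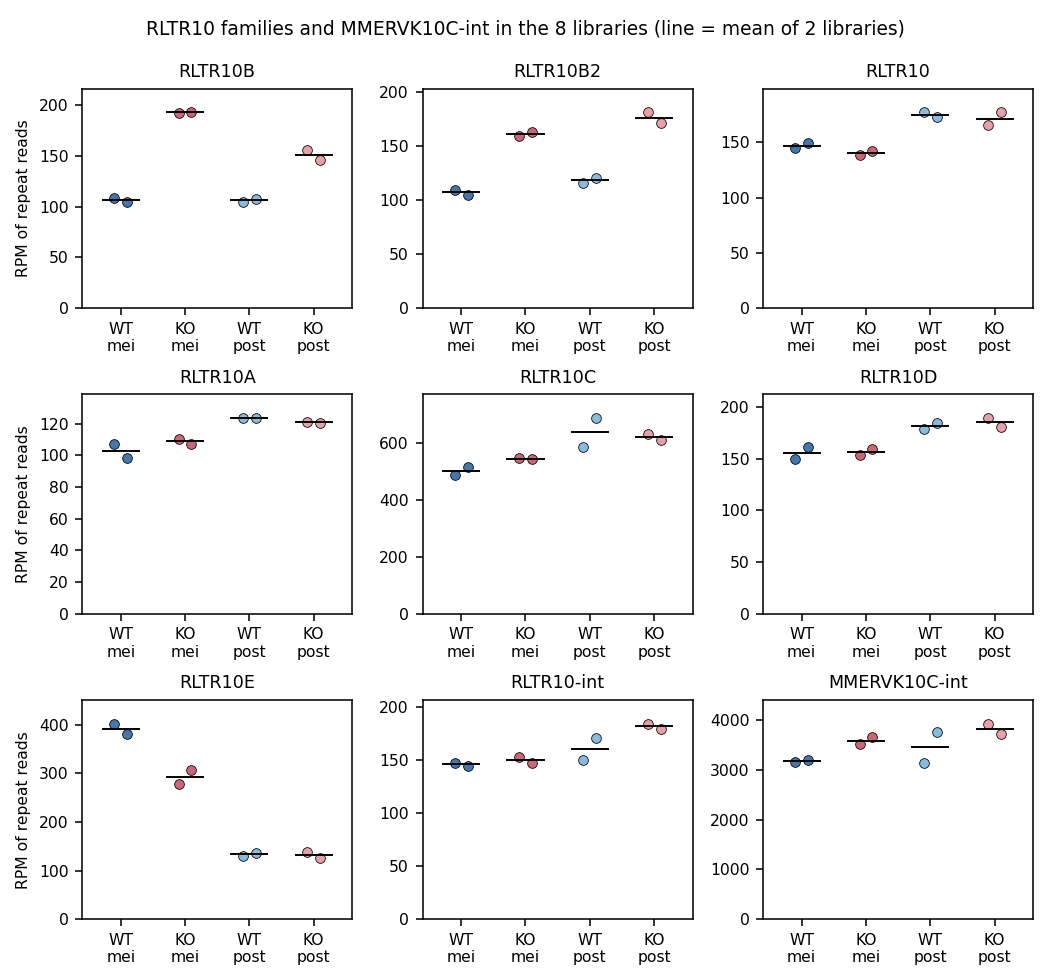
RPM of repeat reads (y axis, from 0) of 8 RLTR10 families and of MMERVK10C-int in WT and KO meiotic (mei) and post-meiotic (post) cells; each point is 1 library and each line the mean of 2. RLTR10B and RLTR10B2 are higher in the 4 KO libraries (146 to 193 RPM) than in the 4 WT libraries (104 to 121 RPM), and RLTR10E falls from meiotic to post-meiotic cells in both genotypes.

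No other family of the RLTR10 name was called higher in KO. RLTR10 itself was at 145 and 149.5 RPM in WT meiotic cells and at 139 and 142 RPM in KO meiotic cells, with a log2 change of −0.07 ± 0.07 (adjusted p = 0.472). RLTR10A, RLTR10C and RLTR10D had log2 changes of 0.08, 0.12 and 0.01 in meiotic cells and of −0.03, −0.03 and 0.03 in post-meiotic cells, and none of these passed the test. RLTR10E went the other way in meiotic cells, from 403 and 380.4 RPM in WT to 279 and 308 RPM in KO (log2 −0.41 ± 0.06, adjusted p = 4.79e-10), under the fold limit. The internal family RLTR10-int had 147 and 145 RPM in WT and 153 and 147 RPM in KO meiotic cells, which overlap. In post-meiotic cells its KO libraries, at 184 and 179 RPM, lie above its WT libraries at 150.1 and 171 RPM, with a log2 change of 0.18 ± 0.07 that did not pass the test (adjusted p = 0.056).

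MMERVK10C-int is the internal part of a young class II retrovirus whose LTRs belong to the RLTR10 group. It took 3147 and 3187 RPM in WT meiotic cells and 3515 and 3648 RPM in KO meiotic cells, a log2 change of 0.18 ± 0.05 (adjusted p = 0.00349) that is under the fold limit. In post-meiotic cells the WT libraries, at 3138 and 3755 RPM, overlap the KO libraries at 3926 and 3721 RPM. Over the 8 libraries, the families whose log2 RPM ran most like RLTR10B were RLTR10B2 (Pearson r = 0.86), IAP-d-int (0.75), MMERVK10C-int (0.57), RLTR13D1 (0.48) and RLTR13A2 (0.41). These values describe 8 libraries that share their repeat totals and 2 genotypes. In meiotic cells IAP-d-int was at 363 and 351 RPM in WT and at 402 and 399 RPM in KO. Its post-meiotic levels were 325 and 352 RPM in WT and 349 and 344 RPM in KO, which overlap.

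The 5 families called lower in KO meiotic cells are RLTR9A2, MuRRS-int, RLTR4_MM-int, RLTR13D6 and RLTR4_Mm. RLTR9A2, an LTR of class II retroviruses, was at 292 and 266 RPM in WT and at 169.7 and 183 RPM in KO (log2 −0.66 ± 0.06, adjusted p = 1.01e-21). MuRRS-int, an internal part related to murine leukemia viruses, was at 235 and 210.1 RPM in WT and at 139 and 143 RPM in KO (log2 −0.66 ± 0.07, adjusted p = 2.58e-20). In both families every KO library lies under every WT library by more than the replicates of a group differ.

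RLTR4_Mm and RLTR4_MM-int are the LTR and the internal part of murine leukemia virus-like elements, class I retroviruses. RLTR4_MM-int was at 968 and 807 RPM in WT and at 582 and 595 RPM in KO meiotic cells (log2 −0.59 ± 0.06, adjusted p = 7.95e-23). Its LTR was at 189.6 and 176 RPM in WT and at 127 and 130.2 RPM in KO (log2 −0.51 ± 0.07, adjusted p = 4.72e-12). Both parts of this element were thus called in the same direction, and the 2 WT libraries of the internal part differ more than the 2 KO libraries do. RLTR13D6, another class II LTR, went from 659 and 617 RPM to 419 and 476 RPM (log2 −0.51 ± 0.06, adjusted p = 3.06e-16).

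The families called lower depend on the library total, which holds the 7SLRNA and 7SK reads. TMM factors over repeat families gave 2 higher and 2 lower in meiotic cells in place of 2 and 5, and the 2 lower families were among the 5. RLTR9A2 and MuRRS-int kept the call, while RLTR4_MM-int came to −0.48, RLTR4_Mm to −0.40 and RLTR13D6 to −0.40. A total of gene counts gave 2 higher and 3 lower. Without WT meiotic replicate 1 the calls on RLTR4_MM-int (−0.45), RLTR13D6 (−0.46) and RLTR4_Mm (−0.45) were lost, as were those on RLTR13D6 (−0.42) and RLTR4_Mm (−0.49) without KO meiotic replicate 1. Without a fold minimum 4 families were higher and 36 lower in KO meiotic cells, among 1.36% and 13.1% of all tested families, so the share lower was 26.9% of the retroviral families. Their median log2 change was −0.11, beside −0.10 for all repeat families.

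**Figure D2:**
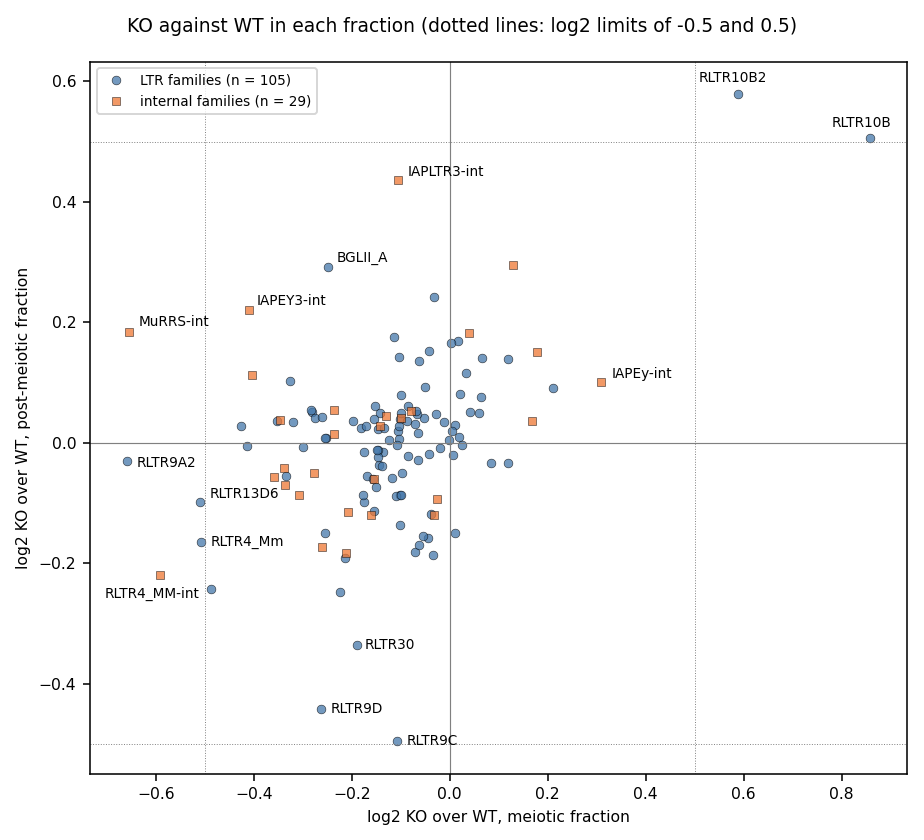
Log2 change of KO over WT in meiotic cells (x axis) and post-meiotic cells (y axis) for 105 LTR families (circles) and 29 internal families (squares), 1 point per family. RLTR10B (0.86 and 0.51) and RLTR10B2 (0.59 and 0.58) are the 2 points past the dotted limit in both fractions, and RLTR9C lies just inside the lower limit in post-meiotic cells.

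The IAP families, class II retroviruses named for the intracisternal particles they form, had 0 of 16 families called in either KO comparison. With 1.36% of all repeat families or fewer called in each direction, a count of 0 among so few families is no result about them, and the same holds for the ETn and MYSERV counts given next. Without the fold minimum, IAPEy-int was higher in KO meiotic cells, at 252 and 240.4 RPM against 205 and 192 RPM (log2 0.31 ± 0.06, adjusted p = 1.65e-05). IAPEz-int, the internal part of the most active IAP elements of the laboratory mouse, had log2 changes of −0.10 ± 0.05 (adjusted p = 0.115) in meiotic and 0.04 ± 0.05 (adjusted p = 0.718) in post-meiotic cells. Its levels were 3603 and 3421 RPM in WT meiotic and 3213 and 3339 RPM in KO meiotic cells. IAPLTR3-int was higher in KO post-meiotic cells, at 949.9 and 879 RPM against 668 and 685 RPM (log2 0.44 ± 0.05, adjusted p = 6.15e-14), and reached 0.56 and a call when scaled by the TMM library size of gene counts.

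The 5 ETn families, elements of the early transposon and MusD type that still insert in mouse genes, had a median log2 change of −0.21 in KO meiotic and −0.05 in KO post-meiotic cells and 0 calls in either direction. ETnERV2-int, with 2248 and 2129 RPM in WT and 1760.4 and 1853 RPM in KO meiotic cells, differed by −0.28 ± 0.05 (adjusted p = 2.4e-06). Of the 3 MYSERV families 0 were called in either KO comparison, and MYSERV16_I-int differed by −0.35 ± 0.05 in meiotic cells (adjusted p = 8.04e-09). RLTR6-int, of a class I retrovirus, was at 1152 and 1095 RPM in WT and at 971 and 1039 RPM in KO meiotic cells (log2 −0.16 ± 0.05, adjusted p = 0.0167).

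In post-meiotic cells, 4 families were higher and 6 lower in KO without the fold minimum, where 1.04% and 6.34% of all repeat families passed. Besides RLTR10B, RLTR10B2 and IAPLTR3-int, the higher family was IAPEY3-int. RLTR9C, a class II LTR, was at 446 and 504 RPM in WT and at 339.9 and 334 RPM in KO post-meiotic cells, and the groups do not overlap. Its log2 change of −0.50 ± 0.06 (adjusted p = 6.15e-14) lies just inside the limit, and it became a call without WT post-meiotic replicate 1 (−0.58) or KO post-meiotic replicate 1 (−0.51). RLTR9D was at 760.0 and 769.8 RPM in WT and at 557 and 569 RPM in KO (log2 −0.44 ± 0.06, adjusted p = 2.23e-12).

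The KO effect itself differed between the fractions for 5 of 134 families, all of them with a higher value in post-meiotic than in meiotic cells, where 1.13% of 973 repeat families were called in this direction and 0.103% in the other. They are MuRRS-int (difference of log2 changes 0.84 ± 0.10, adjusted p = 3.03e-13), IAPEY3-int (0.63 ± 0.08, adjusted p = 2.9e-12), RLTR9A2 (0.63 ± 0.10, adjusted p = 2e-07), IAPLTR3-int (0.54 ± 0.07, adjusted p = 3.03e-11) and BGLII_A (0.54 ± 0.14, adjusted p = 0.00273). The internal families account for 3 of the 5. Without the fold minimum 13 families had a higher and 2 a lower KO effect in post-meiotic cells, beside 3.29% and 0.514% of all families. TMM factors over repeat families left 3, MuRRS-int, IAPEY3-int and RLTR9A2, while a total of gene counts gave 14.

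The levels behind these differences are unlike each other. IAPEY3-int stood at 868 and 762 RPM in WT and at 624 and 603 RPM in KO meiotic cells, and at 457 and 461 RPM in WT and 539 and 528 RPM in KO post-meiotic cells. It was thus lower in KO in the first fraction (log2 −0.41 ± 0.06, adjusted p = 2.18e-11) and higher in the second (0.22 ± 0.06, adjusted p = 0.00239). RLTR9A2 had 65.3 and 63.3 RPM in WT and 64.2 and 61.7 RPM in KO post-meiotic cells, which overlap, after the KO deficit in meiotic cells.

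MuRRS-int had 70.7 and 76.4 RPM in WT and 85.2 and 81.7 RPM in KO post-meiotic cells (log2 0.18 ± 0.08, adjusted p = 0.118). IAPLTR3-int, at 4018 and 3745 RPM in WT meiotic and 3508 and 3703 RPM in KO meiotic cells, differed between genotypes mainly in the later fraction. BGLII_A, an LTR with 34.2 to 48.6 RPM over the 8 libraries, has 2 WT meiotic libraries at 48.6 and 40.2 RPM, and its difference came to 0.39 without WT meiotic replicate 1. The call on BGLII_A was also lost without KO meiotic replicate 1 or either KO post-meiotic library (0.52 to 0.56), and that on IAPLTR3-int without WT meiotic replicate 1 or KO post-meiotic replicate 1 (0.49 in both cases).

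**Figure D3:**
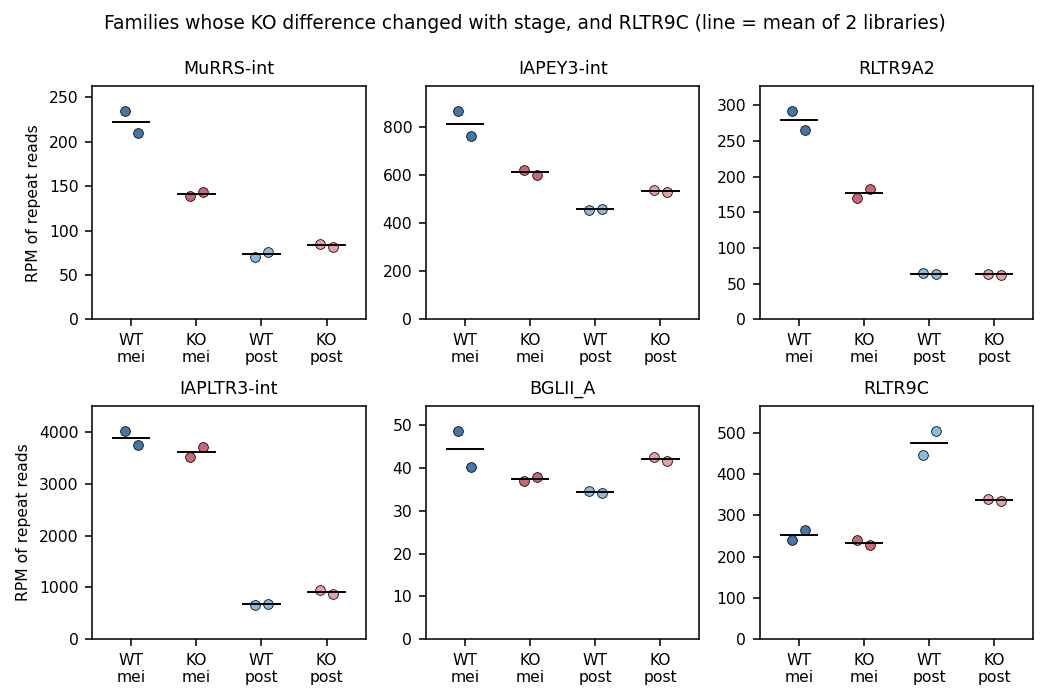
RPM of repeat reads (y axis, from 0) in WT and KO meiotic (mei) and post-meiotic (post) cells for the 5 families whose KO effect differed between fractions, and for RLTR9C; points are libraries and lines are means of 2. In the meiotic fraction the KO libraries of each of the 5 families lie under the WT libraries. In the post-meiotic fraction those of MuRRS-int, IAPEY3-int, IAPLTR3-int and BGLII_A lie above the WT libraries. There those of RLTR9A2 overlap the WT libraries and those of RLTR9C lie under them.

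Markers of other cells moved with genotype as well, counted here at an adjusted p under 0.01, at which 8.98% of all genes were higher and 8.55% lower in KO meiotic cells and 12.4% and 11.6% in KO post-meiotic cells. The 8 macrophage and leukocyte markers summed to 7.93 and 8.40 CPM in WT meiotic and 18.8 and 14.1 CPM in KO meiotic libraries, and to 50.3 and 50.7 CPM in WT post-meiotic and 112 and 94.4 CPM in KO post-meiotic libraries, with 2 and 5 of 8 genes higher in KO. The 6 peritubular and fibroblast markers summed to 97.6 to 129.7 CPM in WT and 182 to 242 CPM in KO post-meiotic libraries, with 2 of 6 higher. The 10 spermatocyte markers summed to 884 and 883 CPM in WT and 1057 and 1003 CPM in KO post-meiotic libraries, with 6 of 10 higher, while in KO meiotic cells 5 were higher and 2 lower. The 5 red cell markers summed to 11.9 and 11.3 CPM in WT and 32.8 and 30.9 CPM in KO post-meiotic libraries, with 4 of 5 higher, and 3 of 6 Sertoli markers were higher there. The 7 spermatogonial markers summed to 263 to 272 CPM in WT and 379 to 444 CPM in KO meiotic libraries, with 3 of 7 higher. In post-meiotic libraries they summed to 128 to 132 CPM in WT and 166 to 176 CPM in KO, with 3 of 7 higher. With DESeq2 size factors over genes 1 of 7 was higher in KO post-meiotic cells. The 10 spermatid markers summed to 9909 to 11035 CPM in WT and 7910 to 9380 CPM in KO meiotic libraries. Of these, 2 of 10 were lower in KO meiotic cells and 2 of 10 in KO post-meiotic cells. Of 7 Leydig markers 2 were lower in KO meiotic cells, and of 5 endothelial markers 1 was lower in KO post-meiotic cells. The part of these cells in the KO changes above was not tested.

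From meiotic to post-meiotic cells of WT mice more retroviral families fell than rose. Of 134 families 9 were called higher and 27 lower, where 11.3% and 11.6% of all 967 repeat families were called, so 6.72% and 20.1% of the retroviral families. In KO mice 6 were called higher and 16 lower, where 11.4% and 7.98% of 965 were called. Without the fold minimum 32 rose and 49 fell in WT, beside 30.7% and 23.8% of all families, and 49 rose and 34 fell in KO, beside 41.9% and 17%. The counts follow the scale: a total of gene counts gave 1 higher and 50 lower in WT and 2 higher and 23 lower in KO, and TMM library sizes of gene counts gave 3 and 38 in WT and 4 and 17 in KO. TMM factors over repeat families gave 2 higher and 21 lower in KO. The median change of all repeat families was 0.08 in WT and 0.16 in KO, beside 0.00 and 0.12 in the retroviral families.

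Markers of other cells changed between the fractions too. The 7 Leydig markers summed to 255 and 209 CPM in WT meiotic and 27.5 and 18.2 CPM in WT post-meiotic libraries. All 7 fell in both genotypes, where 32.4% of all genes fell in WT and 31.5% in KO. The 6 peritubular and fibroblast markers rose from 30.5 and 26.3 CPM to 129.7 and 97.6 CPM in WT, and all 6 of them, all 8 macrophage and leukocyte markers and all 5 red cell markers rose in both genotypes, where 29.6% and 29.5% of all genes rose. Other lists were mixed or went down. Of 5 endothelial markers 3 rose and of 7 spermatogonial markers 5 fell in both genotypes. Of 6 Sertoli markers 2 fell in WT and 2 rose in KO. The part of these cells in the stage changes of the retroviral families was not tested.

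The largest falls were in IAPLTR3-int and IAPLTR3, the internal part and the LTR of 1 IAP element. In WT cells IAPLTR3-int went from 4018 and 3745 RPM to 668 and 685 RPM (log2 −2.52 ± 0.05), and in KO cells from 3508 and 3703 RPM to 949.9 and 879 RPM (log2 −1.98 ± 0.05). Its LTR went from 411 and 419 RPM to 76.2 and 72.6 RPM in WT (log2 −2.48 ± 0.07) and from 430.4 and 410.1 RPM to 87.1 and 80.3 RPM in KO (log2 −2.33 ± 0.07). The KO effect on the internal part differed between fractions, as given above, whereas for the LTR the same difference was 0.15 ± 0.10 (adjusted p = 0.317).

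Next came RLTR9A2, RLTR19A, RLTR13D2, RLTR14-int, MuRRS-int and RLTR10E, which fell in WT by 2.12, 1.99, 1.75, 1.60, 1.60 and 1.55 on the log2 scale and, for all but RLTR10E, in KO by 1.49, 1.91, 1.46, 1.30 and 0.76. RLTR10E went from 279 and 308 RPM to 139 and 127 RPM in KO and was called lower there too. RLTR19A, a class II LTR, went from 124 and 124 RPM to 30.6 and 31.7 RPM in WT and from 118 and 135 RPM to 37.3 and 30.1 RPM in KO. RLTR13D2 went from 409.6 and 392 RPM to 118 and 120.4 RPM in WT, and 5 of the 15 RLTR13 families were called lower there and 2 in KO, where 11.6% and 7.98% of all families were. RLTR19C fell by 1.42 in WT and by 1.03 in KO.

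The rises were smaller. RLTR9C rose from 239 and 264 RPM to 446 and 504 RPM in WT cells (log2 0.92 ± 0.06, adjusted p = 9.38e-49) and from 240.5 and 227 RPM to 339.9 and 334 RPM in KO cells (0.53 ± 0.06, adjusted p = 4.04e-17). RLTR9E rose by 0.70 in WT and 0.83 in KO, with 616 and 645 RPM in WT meiotic and 983 and 1071 RPM in WT post-meiotic cells. Of the 8 RLTR9 families, 4 were called higher and 2 lower in WT, where 11.3% and 11.6% of all families were. Families of 1 name thus went both ways. IAPLTR4 rose by 0.72 and 0.61, MMTV-int, of the mouse mammary tumor virus, by 0.64 and 0.81 and RLTR44C by 0.53 and 0.63 in WT and KO. RLTR26, RLTR9B2, RLTR9D and RLTR1B rose by 0.65, 0.58, 0.55 and 0.53 in WT, and RLTR31B_Mm by 0.56 in KO. MMTV-int is rare, with 13.8 to 29.3 RPM.

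Of the families called in WT, 5 of 9 higher and 16 of 27 lower were called in KO as well (55.6% and 59.3%). These are 83.3% and 100% of the KO calls. The same shares over all repeat families were not computed, so these are no result about retroviral families in particular. MYSERV16_I-int fell by 0.76 ± 0.06 in WT, from 1253 and 1169 RPM to 693 and 742 RPM, and by 0.37 ± 0.05 in KO, from 909.8 and 993 RPM to 747 and 726 RPM. The difference between these changes was 0.39 ± 0.08 (adjusted p = 7.35e-05), under the fold limit.

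**Figure D4:**
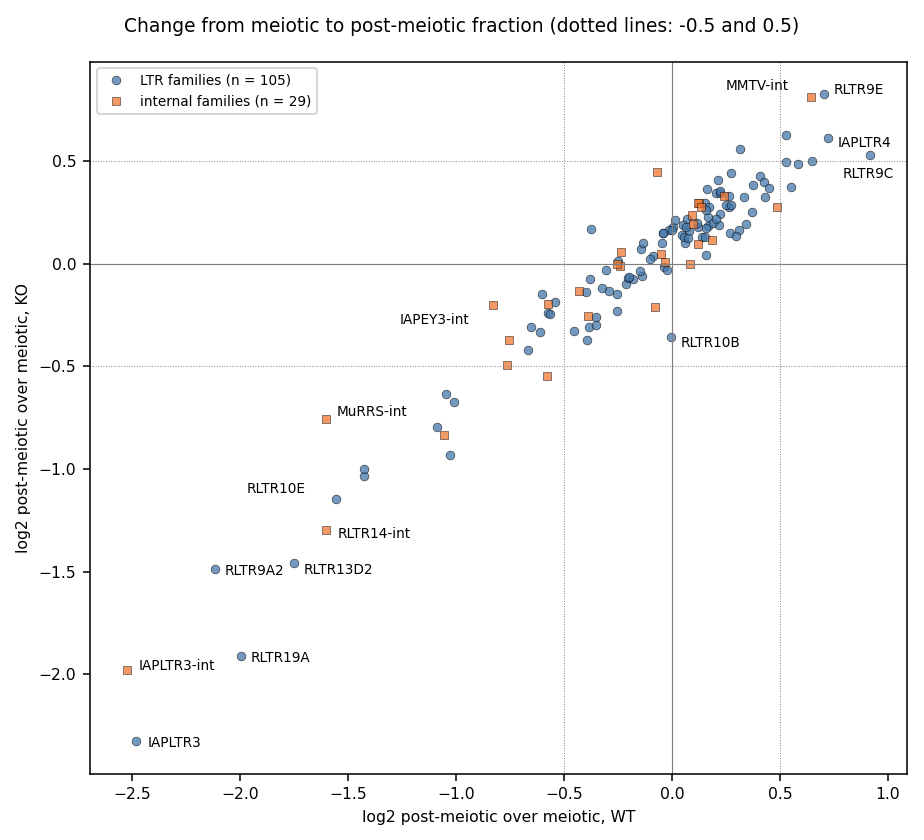
Log2 change from the meiotic to the post-meiotic fraction in WT (x axis) and KO (y axis) cells for 105 LTR families (circles) and 29 internal families (squares). The falls in IAPLTR3-int (−2.52 and −1.98) and IAPLTR3 (−2.48 and −2.33) are the largest in both genotypes, and RLTR10B lies at −0.36 in KO and near 0 in WT.

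LTR and internal families were compared within each library, where the library total cancels. Over all 136 families, internal parts took 50.6 and 50.2% of the retroviral reads in WT meiotic cells and 45.0 and 45.6% in WT post-meiotic cells. In KO they took 50.1 and 50.3% and then 46.5 and 46.5%. The log2 of LTR over internal reads thus rose by 0.30 in WT and by 0.21 in KO from the first fraction to the second, with no overlap between the libraries. A single element made up much of this rise: without IAPLTR3 and IAPLTR3-int, a choice made after seeing the data, it was 0.14 in WT and 0.06 in KO, still with no overlap. Between KO and WT it differed by 0.01 in meiotic cells and by −0.07 in post-meiotic cells, where the KO libraries, at 0.20 and 0.20, lie under the WT libraries at 0.29 and 0.26. Leaving out the LTR and the internal family with the most reads, RLTR15 and IAPEz-int, gave rises of 0.39 and 0.30.

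In WT 1 of 29 internal families was called higher and 9 lower from meiotic to post-meiotic cells (3.45% and 31%), against 8 and 18 of 105 LTR families (7.62% and 17.1%) and 11.3% and 11.6% of all repeat families. In KO the counts were 1 and 5 internal families (3.45% and 17.2%) and 5 and 11 LTR families (4.76% and 10.5%), beside 11.4% and 7.98% of all. The medians were −0.08 for internal and 0.05 for LTR families in WT and 0.00 and 0.14 in KO. Between KO and WT meiotic cells the medians were −0.21 for internal and −0.10 for LTR families, beside −0.10 for all repeat families. Without a fold minimum 14 of 29 internal families (48.3%) and 22 of 105 LTR families (21%) were lower, beside 13.1% of all. With TMM factors over repeat families the median of the retroviral families moved from −0.1081 to −0.0018. Counts without a fold minimum were not made on that scale. In post-meiotic cells the medians were 0.03 for internal and 0.01 for LTR families. No test between the parts was run, as families are not replicates of a condition.

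Of 17 elements whose LTR and internal part are both listed, 11 had a higher and 4 a lower ratio of LTR to internal reads in both WT post-meiotic libraries than in both WT meiotic libraries, and 2 overlapped. In KO the counts were 11, 5 and 1. Without any difference, 2 libraries against 2 fail to overlap at a rate of 0.333. In these libraries non-overlap was common. In RPM, which unlike the ratio depends on the library total, 460 of 967 repeat families were higher and 313 lower without overlap in WT. In KO 565 were higher and 235 lower of 965. Ratios outside the retroviral families were not computed, so the element counts are no result by themselves. The elements are not independent either, as RLTR10C counts in both RLTR10 and MMERVK10C. RLTR14 changed most: in WT its log2 ratio went from −1.03 and −1.02 to 0.15 and 0.10, and in KO from −0.75 and −0.84 to 0.16 and 0.17. Its internal part fell from 1152 and 1075 RPM to 351 and 384 RPM in WT while its LTR went from 565 and 531 RPM to 391 and 411 RPM. In RLTR1B the 2 parts went in opposite directions in WT cells, the LTR from 269 and 283 RPM to 388 and 409 RPM and the internal part from 374 and 349.7 RPM to 266 and 271 RPM.

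For the ETn and MusD elements the log2 ratio was −2.40 and −2.29 in WT meiotic and −1.82 and −1.77 in WT post-meiotic cells, and RLTRETN_Mm, their LTR, rose by 0.43 ± 0.06 (adjusted p = 8.88e-14). In IAPLTR3, where both parts fell, the ratio in WT was −3.29 and −3.16 and then −3.13 and −3.24, which overlap. In KO it was −3.03 and −3.17 and then −3.45 and −3.45. The log2 ratio of the RLTR10 families to RLTR10-int went down with stage, by 0.17 in WT and 0.31 in KO. The WT and KO libraries of this ratio overlap in meiotic cells. Its LTR sum holds RLTR10E, which fell with stage (log2 −1.55 in WT and −1.14 in KO). In WT the rest of the sum changed by −0.004 (RLTR10B) to 0.34 (RLTR10C), and RLTR10-int by 0.13. The ratio without RLTR10E was not computed.

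In KO meiotic cells the ratio was higher than in WT for 8 elements and lower for 4, with 5 overlapping, and in KO post-meiotic cells higher for 4 and lower for 10, with 3 overlapping. The rate of 0.333 given above applies to these counts as well. In RPM, 66 of 953 repeat families were higher and 556 lower in KO without overlap in meiotic cells. In post-meiotic cells 194 were higher and 264 lower of 962. The median difference of the ratio between KO and WT was 0.08 in meiotic and −0.05 in post-meiotic cells. RLTR14, RLTR44 and RLTR6 had a higher ratio in KO in both fractions, and IAPEY and IAPEz a lower one. For RLTR44 and RLTR6 in both fractions, the gap between genotypes was smaller than the replicate difference of at least 1 group. The same held for RLTR14 and IAPEY in post-meiotic cells. For RLTR14 the difference between KO and WT was 0.23 in meiotic and 0.04 in post-meiotic cells, for RLTR44 0.14 and 0.16, and for RLTR6 0.15 and 0.15.

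**Figure D5:**
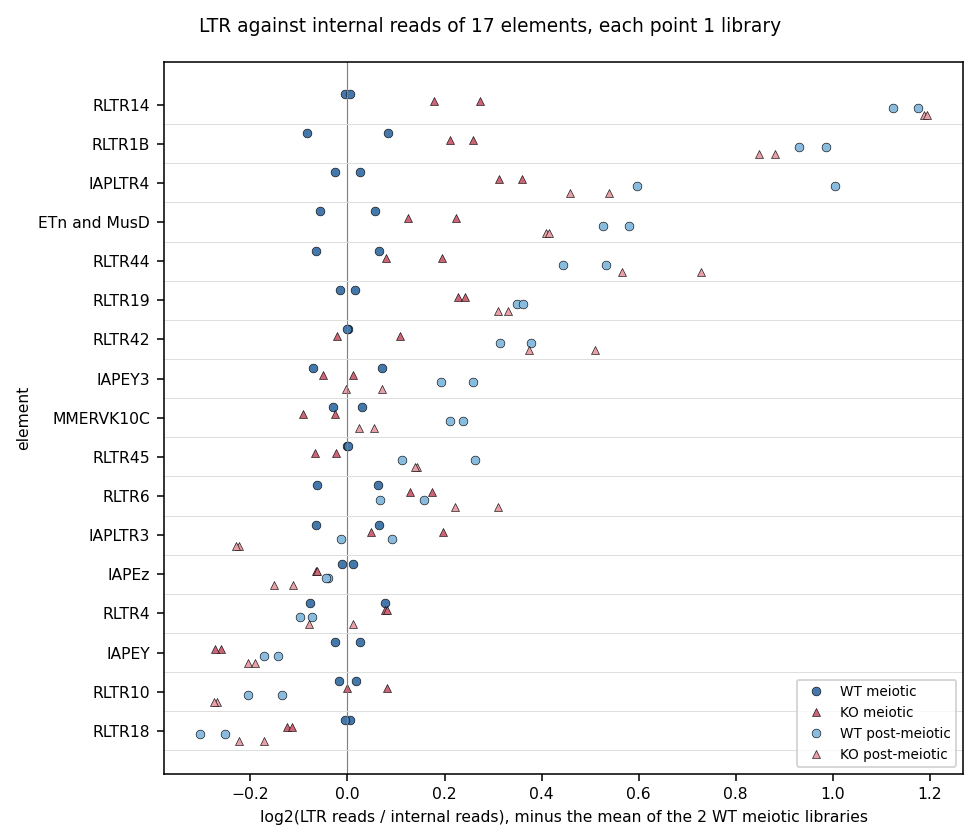
Log2 of LTR reads over internal reads (x axis, after subtracting the mean of the 2 WT meiotic libraries) for 17 elements (y axis); each point is 1 library, circles are WT and triangles KO, dark meiotic and light post-meiotic. Most elements have higher ratios in post-meiotic cells, RLTR14 by 1.15 in WT and 0.97 in KO, while RLTR18, RLTR10, IAPEY and IAPEz have lower ones in WT. The RLTR10 ratio counts RLTR10E among its LTRs.

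Genes that silence retroviruses were counted as background, from 57 listed genes of which 55 were tested, in 56 records since Atf7ip has 2. At an adjusted p under 0.01 with no fold minimum, 8 records were higher and 9 lower in KO meiotic cells (8 lower without H3f3b, the deleted gene), where 8.98% and 8.55% of 20412 genes were, and 8 were higher and 8 lower in KO post-meiotic cells (7 lower without H3f3b), where 12.4% and 11.6% were. With DESeq2 size factors 13 were lower in KO post-meiotic cells. From meiotic to post-meiotic cells 9 rose and 38 fell in WT and 8 rose and 42 fell in KO, where 29.6% and 32.4% of all genes rose and fell in WT and 29.5% and 31.5% in KO. The piRNA pathway fell in 14 of 16 genes in both genotypes. Among them were Tdrd5 (log2 −3.40 in WT and −3.08 in KO) and Piwil1, which encodes a PIWI protein (−3.48 and −3.29).

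Between KO and WT meiotic cells, the H3K9 methyltransferase genes Suv39h1 (0.67 ± 0.09, adjusted p = 1.09e-05) and Ehmt1 (0.47 ± 0.09, adjusted p = 0.000774) were higher. Cbx5, which encodes a heterochromatin protein that binds methylated H3K9, was lower (−0.35 ± 0.06, adjusted p = 0.000124). The DNA methyltransferase gene Dnmt3a was higher (0.51 ± 0.08, adjusted p = 6.37e-05), as was Hells, a chromatin remodeler needed for DNA methylation (0.36 ± 0.06, adjusted p = 0.000377). Of the piRNA genes, Piwil1 was lower by −0.37 ± 0.06 (adjusted p = 6.21e-05) and Tex19.1 higher by 0.49 ± 0.09 (adjusted p = 0.000274).

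In post-meiotic cells Daxx was lower in KO (−0.33 ± 0.05, adjusted p = 3.3e-05) and its partner Atrx higher (0.46 ± 0.08, adjusted p = 0.000258). Trim28, the co-repressor of KRAB zinc finger proteins, was lower by −0.23 ± 0.04 (adjusted p = 0.000414) and Suv39h2 by −0.42 ± 0.05 (adjusted p = 7.45e-06), while Morc2a was higher by 0.35 ± 0.05 (adjusted p = 3.02e-05). H3f3a, the remaining H3.3 gene, had log2 changes of 0.13 ± 0.05 in meiotic (adjusted p = 0.0432) and −0.11 ± 0.05 in post-meiotic cells (adjusted p = 0.0797). Setdb1 was at 0.01 ± 0.05 (adjusted p = 0.909) and 0.25 ± 0.05 (adjusted p = 0.000875). Trim33, chosen after its values were seen because mouse work links it to RLTR10B, was at −0.14 ± 0.05 (adjusted p = 0.0378) and −0.13 ± 0.05 (adjusted p = 0.046), both outside the limit.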

How the data were processed

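Total RNA libraries (stranded kit) of 8 samples were used, 2 per group. Per the labels and the study, gene counts came from TopHat2 2.0.14 (with Bowtie2 2.1.0) on the mm9 build and from HTSeq 0.6.1. The deposited repeat table holds raw read counts per RepeatMasker family made by the authors; the study kept only uniquely aligned RNA reads, and whether this held for the repeat table, whose method it takes from earlier work, is not given in the sources used here. The deposited log2 and p-value columns, the authors' own comparisons, and the piRNA cluster counts were not used.

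Repeat counts were scaled by the total of repeat reads (RPM) and fitted over 973 families in all 8 libraries by edgeR, with its robust quasi-likelihood test (edgeR 4.0.16, R 4.3.3, limma 3.58.1) and Benjamini-Hochberg adjustment over all tested families. The limits of 0.01 and 0.5 follow the study. Its minimum of 5 RPM was set per sample and over mapped reads, whereas here the mean of 1 compared group had to reach 5 RPM over repeat reads, and 5 RPM in every library was an alternative. The common coefficient of variation was 0.0409. For 871 families, 123 of them retroviral, the prior degrees of freedom were infinite. Their p-values and standard errors rest on the shared spread alone, and very small p-values should not be read literally. Gene counts used the edgeR expression filter and TMM factors. On simulated counts 97% of 100 families changed by a log2 of 0.75 and 0% of 754 unchanged ones were called. These counts had a single spread for all families, balanced rises and falls, and no shift in the small RNA share. The rates hold for that setting only.

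The rule for named families took RLTR10B and RLTR10B2, every family called between KO and WT or in the difference of the KO effects, the 8 largest rises and falls called in each genotype with a mean of at least 50 reads and no overlap, the 10 families with most reads, both parts of each of the 17 elements, and the 5 families most like RLTR10B. From each silencing list up to 4 genes with the smallest adjusted p were taken. Elements were paired by name, or for IAPEz, ETn and MusD, and MMERVK10C (with RLTR10C) from general knowledge. The families, lists and tests were chosen with earlier results of these data known.

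Alternatives were other scalings (TMM or DESeq2 size factors, gene totals, totals without 7SLRNA and 7SK), filters, limits, the Wald test of DESeq2 1.42.0, fits on the 4 libraries of a comparison, a block for replicate number, and leaving out each library. Replicates of each group differed by more than sampling noise.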

Additional observations from a re-analysis of the deposited data

Results flagged for a closer look

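The KO effect differed between the meiotic and the post-meiotic fraction in 5 retroviral families by the test of the difference itself. The post-meiotic log2 change of KO over WT exceeded the meiotic one by 0.8396 for MuRRS-int, 0.6302 for IAPEY3-int, 0.6285 for RLTR9A2, 0.5422 for IAPLTR3-int and 0.5388 for BGLII_A. The first 3 kept the call under each scaling of the libraries that was run, and IAPLTR3-int came to 0.45 with TMM factors over repeat families and 0.48 with totals that leave out 7SLRNA and 7SK. BGLII_A lost the call under both of these scalings, with DESeq2 size factors and in the Wald test of DESeq2, and IAPLTR3-int also with DESeq2 size factors. No group has 4 or more libraries, so single libraries were not screened for outlying values.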

How the results depend on the processing

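Both the scaling and the fold limit moved the counts. From meiotic to post-meiotic cells, a total of gene counts gave 1 family higher and 50 lower in WT and 2 higher in KO, TMM library sizes of gene counts gave 3 higher in WT, and TMM factors and DESeq2 size factors over repeat families each gave 2 higher in KO. For KO against WT meiotic cells the count of lower families was 2 with TMM factors, 2 with DESeq2 size factors, 3 with a total of gene counts and 3 with totals that leave out 7SLRNA and 7SK, an alternative chosen after seeing the data. In post-meiotic cells a total of gene counts gave 5 higher. For the difference of the KO effects the counts were 3 with TMM factors, 3 with DESeq2 size factors, 14 with a total of gene counts, 12 with TMM library sizes of gene counts and 3 without 7SLRNA and 7SK. With no fold minimum 32 families were higher and 49 lower with stage in WT, 49 and 34 in KO, 4 and 36 for KO in meiotic cells, 4 and 6 for KO in post-meiotic cells and 13 and 2 for the difference. With a limit of 1 on the log2 scale, 0 rose and 15 fell in WT, 0 rose and 8 fell in KO, 0 were higher and 0 lower for KO in meiotic cells, and 0 were higher for KO in post-meiotic cells and for the difference. Without RLTR15 and IAPEz-int the rise of LTR over internal reads was 0.3868 in WT and 0.2963 in KO, and without IAPLTR3 and IAPLTR3-int, also chosen after seeing the data, 0.1353 and 0.0622. DESeq2 size factors gave 13 silencing genes lower in KO post-meiotic cells. The causes were not tested.

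Leaving out 1 library at a time gave 3 to 6 lower families for KO in meiotic cells, with 3 without WT meiotic replicate 1 or KO meiotic replicate 1. For KO in post-meiotic cells it gave 1 to 2 higher and 0 to 1 lower, with 1 and 1 without WT post-meiotic replicate 1 or KO post-meiotic replicate 1, and for the difference 3 to 6, with 3 without WT meiotic replicate 1 or KO post-meiotic replicate 1. RLTR10B and RLTR10B2 were called higher in KO meiotic cells under each alternative run but the log2 limit of 1.

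A total of gene counts reversed the stage change in WT of IAPEY2_LTR (−0.0638), RLTR10 (−0.0758), RLTR10A (−0.0602), RLTR10D (−0.1027) and RLTR31B_Mm (−0.0128) and the KO difference of RLTR4_MM-int in post-meiotic cells (0.0058). The difference of the KO effects for RLTR10B2, near 0, was 0.1471 with a total of gene counts, 0.1073 with TMM library sizes of gene counts and −0.0507 to 0.0318 when 1 library was left out. The replicate number as a block gave the same counts in each comparison, 9 and 27, 6 and 16, 2 and 5, 2 and 0, and 5 and 0. Deviations of same-numbered libraries correlated at −0.128 to 0.0177 over 973 families. No signal shared by replicate number was thus seen, which cannot tell whether same-numbered libraries come from the same mouse.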
